A study of Mus musculus with 12 samples.

Results

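Guca2a, Guca2b and Gucy2c encode guanylin, uroguanylin and guanylate cyclase C, their shared receptor, and they are 3 of the 54232 genes in the count table. The genes were chosen by name after their levels in these libraries had been seen, so their levels and differences are given as a description. Which of them the fit across all genes called is stated only beside the share of all genes called, and is no evidence about them. The libraries are 3′ RNA sequencing libraries of intestinal stem cells (ISCs), each sorted from the small intestinal crypts of a single mouse, either young (2 months) or old (22 months), with 3 libraries in each of 4 groups. SM6 libraries came from C57/Bl6 wild-type (WT) mice and are named after a sort by surface markers. Lgr5-GFP libraries came from mice that the labels name Lgr5-EGFP-IRES-CreERT and the study's methods name Lgr5-EGFP-IRES-CreERT2. These mice carry a fluorescent reporter and an inducible Cre recombinase in Lgr5, a gene that marks ISCs. No mouse is labelled as having received a treatment. Strain and isolation change together and cannot be told apart, and the sources differ on the sort. The labels describe surface markers for every library, while a legend in the study states that the GFP reporter was used for Lgr5-GFP cells, so the isolations are named only as the sample titles name them.

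Guanylin and uroguanylin are small peptide hormones that intestinal epithelial cells secrete into the gut lumen. They bind guanylate cyclase C on the apical membrane of the same epithelium, which then makes cyclic GMP (cGMP) inside the cell. Cyclic GMP acts through a membrane-bound kinase to open the chloride channel CFTR and to hold back sodium uptake, and the receptor is best known as the target of the heat-stable enterotoxin of Escherichia coli. In the small intestine both peptides are known chiefly as products of differentiated cells.

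In mouse build GRCm38, Guca2a (ENSMUSG00000023247) lies on the plus strand of chromosome 4, at 119637704 to 119639471, and Guca2b (ENSMUSG00000032978) on the minus strand of the same chromosome, at 119656607 to 119658954. Each has 3 exons, and the genes point towards each other across 17135 bases that hold 0 annotated genes. Gucy2c (ENSMUSG00000042638) spans 136697284 to 136781765 on the minus strand of chromosome 6, with 26 or 27 exons in its coding transcripts. None of the 3 overlaps another annotated gene.

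The promoters of both ligands are shown because the levels of these neighbouring genes moved together with age in one isolation and parted in the other. Each run holds the 250 bases before the RefSeq transcription start, 5′ to 3′ on the gene's own strand, from RefSeq's table for GRCm38.p6. The last bases of each run lie within the gene span given above, because the RefSeq start lies inside that span. Capitals mark matches, on either strand, to any of 6 motifs of 6 letters: AGATAA for GATA factors, GTTAAT for a piece of the HNF1 site, TTTATG for CDX factors, CAAAGT as a piece of the HNF4 site, CCACCC for KLF factors and TATAAA for the TATA box. Guca2a lies at chr4:119637482-119637731 and Guca2b at chr4:119658946-119659195.
Guca2a: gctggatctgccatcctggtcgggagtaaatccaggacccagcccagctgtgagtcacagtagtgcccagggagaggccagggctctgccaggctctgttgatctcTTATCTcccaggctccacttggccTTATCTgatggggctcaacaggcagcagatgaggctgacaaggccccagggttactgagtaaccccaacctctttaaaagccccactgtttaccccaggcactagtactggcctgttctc
Guca2b: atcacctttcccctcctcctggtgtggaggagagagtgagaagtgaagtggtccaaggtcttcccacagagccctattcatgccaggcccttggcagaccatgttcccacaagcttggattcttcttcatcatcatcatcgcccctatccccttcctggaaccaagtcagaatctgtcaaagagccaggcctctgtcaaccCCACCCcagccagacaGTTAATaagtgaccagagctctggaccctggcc

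The Guca2a window held the GATA letters at 2 places, both on the opposite strand, and the Guca2b window held 1 KLF match and 1 HNF1 match, both on the gene's strand. Of 32851 promoters in the table, 9.99% held the GATA letters, 28.1% the KLF letters and 6.43% the HNF1 letters within the same 250 bases. CDX, HNF4 and TATA letters, which 10.8%, 12.6% and 12.4% of promoters held, were in neither window. The motifs were picked with both sequences in view and no matches overlapped, so these are descriptions of letters and not of bound sites.

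Library totals ran from 970472 to 3815425 counts. All 9 stem cell markers, Lgr5, Ascl2 and Olfm4 among them, had counts in every library, at a summed level of 7482 to 15113 CPM (counts scaled to a common library total with TMM factors, which offset differences in composition), and the lowest sums were those of SM6 old. Markers of other cells were also present, the Paneth cell list most of all, at 1.15% to 21.6% of counts. Defensins took 23.1% of counts in SM6 old replicate 3 and 23.2% in Lgr5-GFP young replicate 1, the highest shares, and age differences of the 3 genes and their correlations with the main marker sums are also given without this pair. The immune marker Cd79a was at 0 in every library, and Ptprc and Cd3e at 0 in both old groups. The stromal markers Pdgfra and Col3a1 were at 0 throughout. Neurog3 was at 0 in both young groups, Sst in Lgr5-GFP old, and Gfi1b in both young groups.

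Guca2a was highest in old SM6 ISCs and similar in the other groups. In SM6, Guca2a was at 657, 448 and 593 CPM in young replicates 1 to 3, and at 1801, 1608 and 1189 CPM in the old ones. All 3 old libraries lay above all 3 young ones. The fitted log2 difference was 1.44 (SE 0.30, 95% interval 0.82 to 2.06), or 2.71-fold. In Lgr5-GFP, the young libraries held Guca2a at 808, 427 and 526 CPM and the old ones at 507, 1027 and 298 CPM. The old libraries held both the highest and the lowest value, so the groups overlapped. The fitted log2 difference was 0.05 (SE 0.30, interval -0.56 to 0.67). The SM6 old group had a mean of 1533 ± 313 CPM (SD, n = 3), ahead of 611 ± 375 in Lgr5-GFP old, 587 ± 198 in Lgr5-GFP young and 566 ± 107 in SM6 young, and these lower 3 overlapped one another.

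Guca2b moved in opposite directions with age in the isolations. In SM6, the young libraries held Guca2b at 368, 259 and 275 CPM and the old ones at 741, 628 and 1082 CPM. The groups did not overlap, with a fitted log2 difference of 1.44 (SE 0.28, interval 0.87 to 2.01), or 2.71-fold, close to that of Guca2a. In Lgr5-GFP, it stood at 1010, 428 and 418 CPM when young and at 186, 220 and 130 CPM when old. Again the groups did not overlap, but here the old libraries were the lower ones. The fitted log2 difference was -1.79 (SE 0.28, interval -2.38 to -1.20), or 3.46-fold. Ranked by mean, SM6 old came first at 817 ± 236 CPM (SD, n = 3), followed by Lgr5-GFP young at 619 ± 339, SM6 young at 301 ± 58.5 and Lgr5-GFP old at 179 ± 45.5. The first and second overlapped, whereas each of the lower steps separated every library.

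The receptor gene stayed within a narrow range. Gucy2c was at 117, 126 and 111 CPM in SM6 young and at 108, 97.7 and 133 CPM in SM6 old. It was at 172, 114 and 126 CPM in Lgr5-GFP young and at 115, 141 and 94.5 CPM in Lgr5-GFP old. The ranges of all 4 groups overlapped, and their means ran from 113 ± 17.9 CPM (SM6 old; SD, n = 3) to 138 ± 30.7 (Lgr5-GFP young). The fitted log2 age difference was -0.07 in SM6 (SE 0.19, interval -0.46 to 0.33) and -0.24 in Lgr5-GFP (SE 0.19, interval -0.64 to 0.15). These intervals leave room for modest changes in either direction. Gucy2c rested on 98 to 547 counts per library, against 309 to 2566 for Guca2a and 135 to 3206 for Guca2b.

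**Figure D1:**
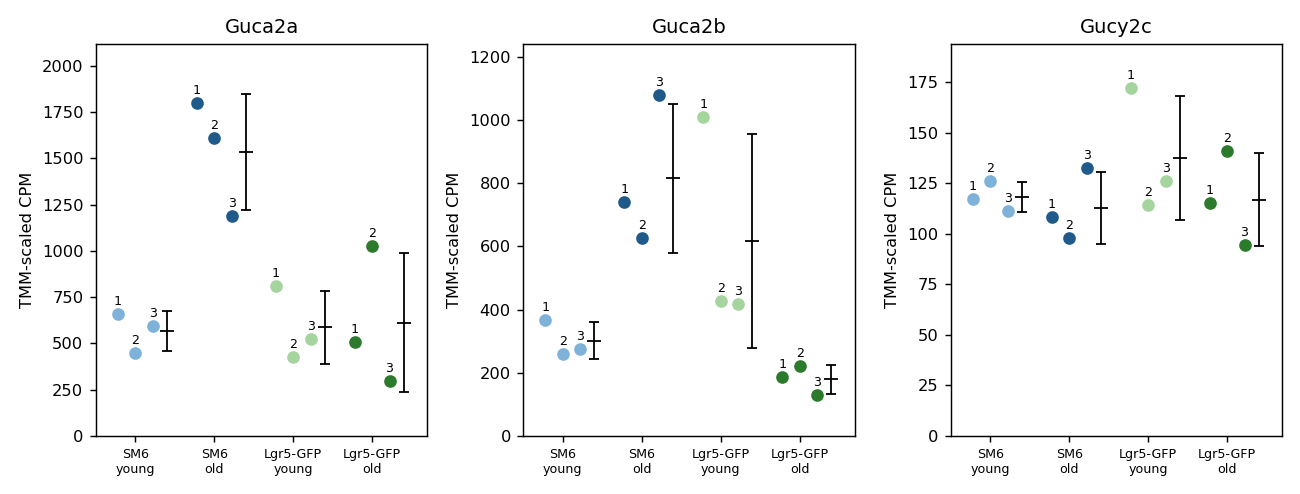
Level of each gene in every library, in TMM-scaled CPM, with 1 point per library (numbered by replicate) and the group mean ± SD beside it; each panel has its own vertical axis from 0. Guca2a stands high in SM6 old alone, Guca2b stands high in SM6 old and lowest in Lgr5-GFP old, and the Gucy2c groups overlap.

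Set against each other, the age differences parted most for Guca2b. The age difference in Lgr5-GFP minus that in SM6 was -3.23 on the log2 scale for Guca2b (SE 0.40, interval -4.05 to -2.41), -1.39 for Guca2a (SE 0.42, interval -2.26 to -0.51) and -0.18 for Gucy2c (SE 0.27, interval -0.73 to 0.38). At 2 months, Guca2b was the gene of the 3 that lay higher in Lgr5-GFP than in SM6 in every library, with a log2 difference of 1.04 (SE 0.28). Without Lgr5-GFP young replicate 1, that difference was 0.49. Guca2a and Gucy2c overlapped between the isolations at 2 months, with log2 differences of 0.06 (SE 0.30) and 0.23 (SE 0.19). At 22 months, both ligands were lower in every Lgr5-GFP library than in every SM6 library, by log2 differences of -1.33 (SE 0.30) for Guca2a and -2.19 (SE 0.29) for Guca2b. The receptor differed by 0.05 (SE 0.19) at that age.

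**Figure D2:**
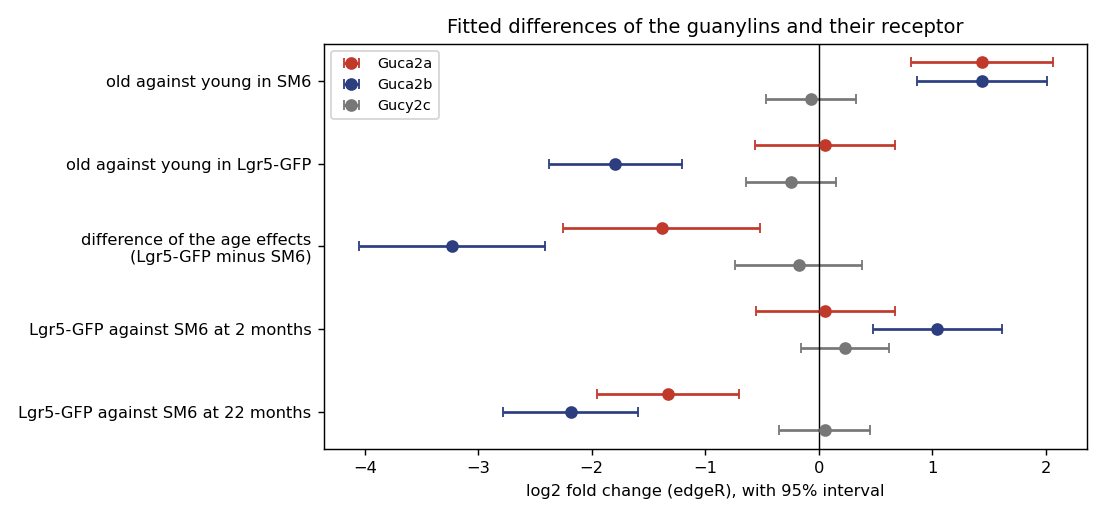
Fitted log2 differences (horizontal axis) of the 3 genes in the 5 comparisons, with 95% intervals from the edgeR fit. The ligands share a difference of 1.44 in SM6 with age and split in Lgr5-GFP, where Guca2b is at -1.79 and Guca2a at 0.05, and all intervals of Gucy2c include 0.

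Both ligands passed an adjusted p of 0.05 (edgeR quasi-likelihood test) in SM6 with age, 2 of 3 members, where 2.42% of all 13368 tested genes did. In Lgr5-GFP with age it was 1 member, Guca2b, against 0.471% of tested genes, and for the difference of the age effects 1 member, again Guca2b, against 0.658%. Between the isolations, 0 members passed at 2 months, where 0.0898% of tested genes did, and 2 at 22 months, where 0.718% did. The calls of Guca2a were the less steady ones. In SM6 with age it was not called without young replicate 2 (1.30) or old replicate 1 (1.32). At 22 months it was not called by DESeq2 (-1.33), on library totals alone (-1.14), or without SM6 old replicate 1 or 2 or Lgr5-GFP old replicate 1 or 3 (-1.29 to -1.001). Groups that did not overlap were common, at 17.5% of tested genes in SM6 with age, 14.6% in Lgr5-GFP with age, 13.7% between the isolations at 2 months and 13.5% at 22 months. Nothing is read from these counts, since the same contrasts were known when the genes were picked.

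Single libraries carried part of the spread. Guca2b was highest within its group in SM6 old replicate 3 and in Lgr5-GFP young replicate 1, the libraries with the highest defensin shares. Without this pair, the log2 age difference of Guca2b was 1.20 in SM6 and -1.23 in Lgr5-GFP, and the difference between them -2.43. That of Guca2a was then 1.60 in SM6 and 0.36 in Lgr5-GFP, with -1.24 between them, and that of Gucy2c -0.19 and -0.04, with 0.15 between them. Guca2a in Lgr5-GFP old rested on replicate 2, without which its log2 age difference there was -0.54 (SE 0.26) and its difference between isolations -1.98 (SE 0.35), compared with -1.39 in all libraries.

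The balance between the peptides followed from these levels. Of the counts of both ligands together, Guca2b made up 35.9%, 36.7% and 31.7% in SM6 young, and 29.2%, 28.1% and 47.6% in SM6 old. In SM6 old, replicates 1 and 2 lay below every young library and replicate 3 above every one, so the ages overlapped. In Lgr5-GFP, Guca2b made up 55.5%, 50.1% and 44.3% in the young libraries, against 26.9%, 17.7% and 30.4% in the old ones. Every old library lay below every young one there, with means of 25.0% ± 6.57 (SD, n = 3) and 49.96% ± 5.64. The widest Wilson interval at 95% was 26.3% to 34.8%, in Lgr5-GFP old replicate 3, and it covers counting error only. Added together, the ligands were at 707 to 1024 CPM in SM6 young, 2236 to 2542 in SM6 old, 855 to 1818 in Lgr5-GFP young and 428 to 1247 in Lgr5-GFP old. Since 3′ reads are not corrected for how well each transcript is captured, the share compares libraries and does not give the ratio of molecules.

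**Figure D3:**
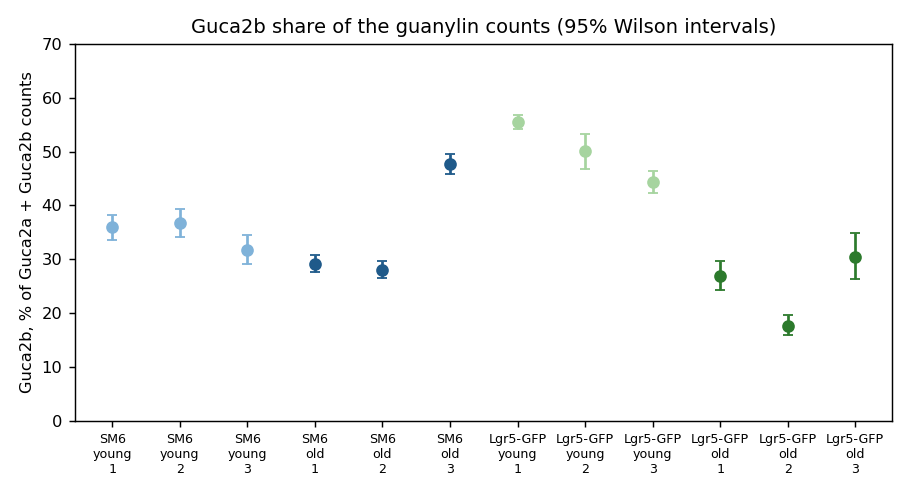
Guca2b as a percentage of the summed Guca2a and Guca2b counts (vertical axis, from 0) in each of the 12 libraries, with 95% Wilson intervals. The Lgr5-GFP young libraries lie at 44.3% to 55.5% and the Lgr5-GFP old ones at 17.7% to 30.4%, whereas the SM6 ages overlap.

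Markers of other cell types also differed with age. In bulk libraries such as these, more cells of a type and more RNA per cell cannot be told apart. In SM6 with age, 5 of 13 enterocyte markers were higher (Alpi, Fabp1, Fabp2, Sis and Krt20), as were 5 of 8 goblet cell markers (Muc2, Tff3, Agr2, Zg16 and Spink4), 2 of 10 enteroendocrine markers (Sst and Pyy) and 1 of 7 Paneth cell markers (Defa22), and 0 of these lists' genes were lower. Of the 9 stem cell markers, 3 were lower (Olfm4, Znrf3 and Sox9). In Lgr5-GFP with age, 3 enterocyte markers (Apoa1, Apoa4 and Lct) and 2 Paneth cell markers (Defa17 and Mmp7) were lower, and 0 markers of any list were higher. Each of these passed an adjusted p of 0.05 in edgeR's test over all genes. Without the defensin-rich pair, 14 of these 16 calls in SM6 remained, those of Defa22 (1.29) and Sst (2.68) being lost, and so did all 5 in Lgr5-GFP. Single libraries mattered more, since 3 of the 16 (Olfm4, Sox9 and Agr2) and 0 of the 5 were called in every fit that left out 1 library. Leaving out SM6 young replicate 2 ended most of the calls in SM6, and leaving out Lgr5-GFP old replicate 1 or 3 ended all of those in Lgr5-GFP.

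The summed goblet list was at 5712 to 9134 CPM in SM6 young and 17322 to 18248 in SM6 old, and at 5304 to 13753 in Lgr5-GFP young and 3159 to 5504 in Lgr5-GFP old. Guca2b followed this sum over the 12 libraries (Pearson r 0.91, Spearman rho 0.85), also in deviations from the group means (r 0.84). Guca2a followed it as well, at r of 0.82 (rho 0.69; deviations 0.63). Without the pair of libraries with the highest defensin shares, r was 0.89 for Guca2b and 0.83 for Guca2a. Spink4 had the highest mean of the 8 goblet genes in every group, from 1950 CPM in Lgr5-GFP old to 8168 CPM in SM6 old. It is also among the genes most like Guca2b named below, and r with the goblet list without Spink4 was not computed. The enterocyte list was at 1950 to 2153 CPM in SM6 young, 2701 to 9517 in SM6 old, 1816 to 3170 in Lgr5-GFP young and 2094 to 11933 in Lgr5-GFP old. Guca2a followed it more closely than Guca2b did, with r of 0.72 (rho 0.75) against 0.13 (rho 0.18), or 0.81 against 0.33 without the defensin-rich pair. In deviations, r was 0.83 against 0.14 in all libraries and 0.90 against 0.70 without the pair, so the ligands differed less there. The highest enterocyte sum was in Lgr5-GFP old replicate 2, the library with the highest Guca2a of its group, where Guca2b was at 220 CPM. Fabp1, a fatty acid binding protein, made up 82.6% of the sum in that library, at 9851 CPM. Without Fabp1, its sum was 2082 CPM, and the highest was that of SM6 old replicate 1 at 3954 CPM. On the sum without Fabp1, r was 0.83 (rho 0.82; deviations 0.64) for Guca2a and 0.47 (rho 0.47; deviations -0.16) for Guca2b.

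Other lists ran with the genes too. With the Paneth cell sum, r was 0.78 (rho 0.81) for Guca2b and 0.24 (rho 0.31) for Guca2a, and without the defensin-rich pair it was 0.53 and 0.04. With the stem cell sum it was -0.75 (rho -0.64) for Guca2a, -0.34 (rho -0.24) for Guca2b and 0.26 (rho 0.22) for Gucy2c, and without the pair -0.76, -0.40 and 0.32. Olfm4 made up most of that sum in every library. In deviations, r of Guca2b with the stem cell sum was -0.19 in all libraries and -0.78 without the pair. Guca2b in deviations was closer to the immune list (r 0.91) and the tuft cell list (r 0.90) than to the goblet list, on sums of 6 to 99 and 1 to 152 counts per library, and over the libraries at r of 0.80 and 0.33. Without the pair, r in deviations was 0.72 with the immune list, 0.66 with the tuft cell list and 0.79 with the goblet list, and over the libraries it was 0.58, -0.54 and 0.89. For Gucy2c, the highest r over the libraries was with the tuft cell list, at 0.79 (rho 0.78; deviations 0.79), which was 0.50 (deviations 0.39) without the pair. In deviations it was at 0.78 with the enteroendocrine list, or 0.55 without the pair, and at 0.32 with the enterocyte list, or 0.89 without it. The points share library and group, and the part of these cells in the levels of the 3 genes was not tested.

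**Figure D4:**
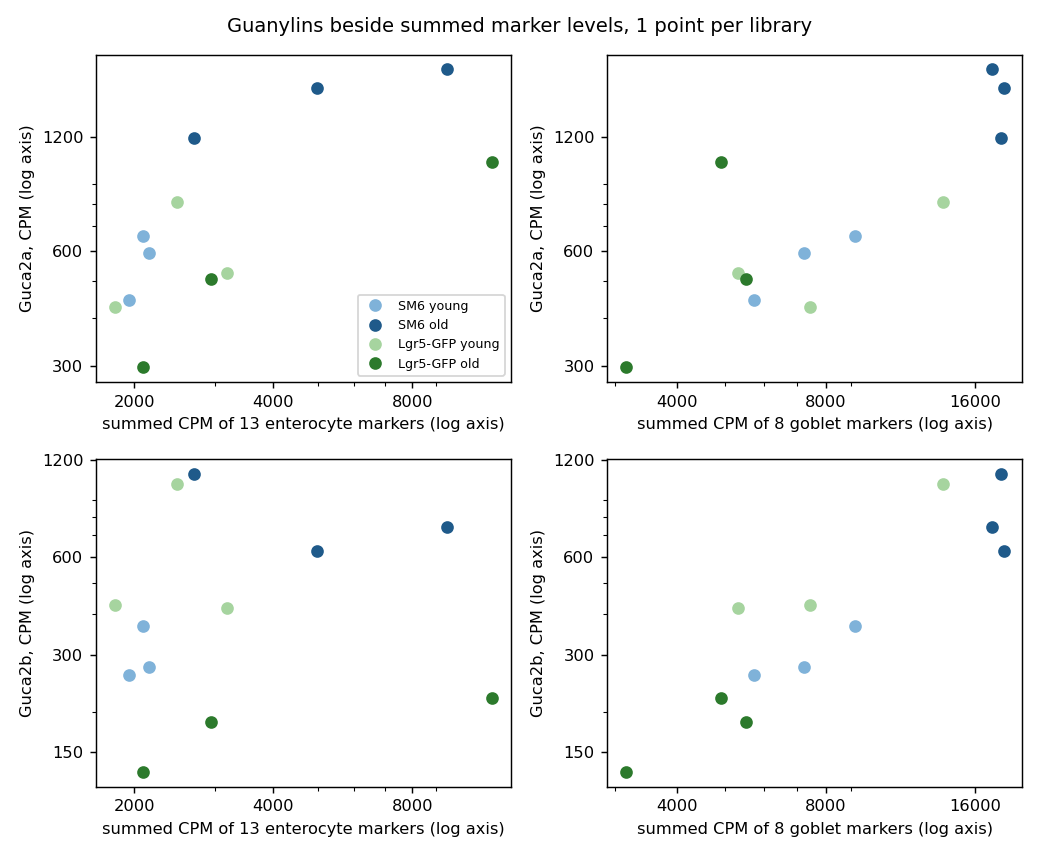
Guca2a (upper panels) and Guca2b (lower panels) against the summed level of 13 enterocyte markers (left) and 8 goblet cell markers (right), in CPM on log axes, with 1 point per library coloured by group. Guca2b and the goblet sum, in which Spink4 has the highest group means, run together over the libraries, with r of 0.91. Lgr5-GFP old replicate 2 has the highest enterocyte sum, 82.6% of it Fabp1, and a Guca2b level among the lowest 3.

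Over the 12 libraries, on the scale of log2(CPM + 1), the ligands correlated at r of 0.68 (rho 0.64). Guca2a and Gucy2c correlated at 0.12 (rho 0.16) and Guca2b and Gucy2c at 0.41 (rho 0.25). Of 8324 other genes with a mean of at least 10 CPM, 130 were more like Guca2a than Guca2b was. In deviations from the group means, Guca2b and Gucy2c were the most alike of the pairs, at r of 0.88 (rho 0.87), and 11 genes were more like Guca2b than Gucy2c was. Without the defensin-rich pair, r over the libraries was 0.71 for the ligands, -0.02 for Guca2a and Gucy2c and -0.09 for Guca2b and Gucy2c, so both correlations with the receptor turned negative. Without the same pair, r in deviations was 0.71 for Guca2b and Gucy2c, 0.86 for the ligands and 0.83 for Guca2a and Gucy2c. Without the 2 libraries farthest from the median of Guca2a, r over the remaining libraries was 0.63 for the ligands and 0.71 for Guca2a and Gucy2c. Likewise, without the 2 farthest from the median of Guca2b, it was 0.16 for Guca2b and Gucy2c.

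The genes most like Guca2a over the 12 libraries were Mogat2, an acyltransferase of dietary fat absorption (r 0.93, rho 0.97), Tfcp2l1, Atoh1, the transcription factor that sets the secretory lineage, Tmed3 and Gm3336, down to r of 0.89. In deviations from the group means they were again Mogat2 (r 0.96), then Glul, Spata5, Zfp358 and Cnep1r1, down to 0.90. Those most like Guca2b were the chemokine gene Ccl6 (r 0.97, rho 0.97), the goblet marker Spink4 (r 0.95, rho 0.95), the cell cycle inhibitor Cdkn1a, Ramp1 and the defensin pseudogene Defa-ps6, down to 0.90. In deviations they were Hnrnpr (r 0.95), Spink4, Tmed10, Smim3 and Defa-ps6, down to 0.91. Reads of Defa-ps6 may be shared with near-identical defensins, so its level is uncertain. Gucy2c had weaker matches over the libraries, led by the retinoic acid receptor gene Rara (r 0.87, rho 0.90), Nom1, Zfp518a, Cxxc1 and Add1, down to 0.81. In deviations its closest were Gcnt3, a glycosyltransferase of mucins (r 0.95), Tacc1, Ubp1, Nom1 and Mia3, down to 0.90. Without the defensin-rich pair, r of these named genes was 0.88 to 0.95 for Guca2a, 0.71 to 0.95 for Guca2b and 0.69 to 0.94 for Gucy2c, the lowest being Spink4 in deviations for Guca2b and Add1 for Gucy2c. Each list holds the highest r among 8324 genes over 12 libraries, a choice that gives high values by itself. The lists are therefore descriptions, and no link between the genes was tested.

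Downstream of the receptor, 1 kinase gene was called with age in SM6. Prkg2 encodes the membrane-bound cGMP-dependent kinase of the intestinal epithelium. It was at 168, 169 and 160 CPM in SM6 young and at 68.6, 65.8 and 65.5 CPM in SM6 old. The groups lay far apart relative to their spread, and Prkg2 fell by 1.31 on the log2 scale with age in SM6 (SE 0.20, edgeR adjusted p = 0.000639). It was called in each of the 20 alternative fits run for that comparison. The summed stem cell markers were lower there too, at 7482 to 8694 CPM in SM6 old against 12163 to 15113 in SM6 young. Olfm4 made up most of that sum, with means of 5995 CPM in SM6 old and 10728 CPM in SM6 young. Of the 9 markers, 1 was higher in SM6 old, Ascl2, at a mean of 121 CPM against 108. The part of these markers in the Prkg2 level was not tested. In Lgr5-GFP, the young libraries held Prkg2 at 129, 142 and 161 CPM and the old ones at 82.0, 110 and 53.0 CPM. The old libraries were again the lower ones without overlap, with a log2 difference of -0.81 (SE 0.20) that missed the threshold (edgeR adjusted p = 0.0686). The age differences of Prkg2 in the isolations were not shown to differ, the gap being 0.50 (interval -0.08 to 1.08, edgeR adjusted p = 0.595). Prkg1, the other kinase of the family, had 1 count in all libraries together.

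A list of 43 further genes was examined by role, 9 of them intestinal transcription factors and the others genes of cGMP signalling and ion transport, and 31 were tested. In SM6 with age, 1 of the 31, Prkg2, was lower and 0 were higher, beside 2.42% of all tested genes called in either direction. The median log2 difference of the 31 was 0.01, beside -0.01 over all tested genes. In Lgr5-GFP with age, 0 were called by edgeR, beside 0.471% of all tested genes. Of the 31, 7 were at an unadjusted edgeR p under 0.05, and DESeq2 and limma voom each called 1, Prkg2. The median there was -0.09, beside -0.03 over all genes. For the difference of the age effects, 0 were called by edgeR, beside 0.658% of all tested genes. Of the 31, 6 were at an unadjusted edgeR p under 0.05, limma voom called 0 and DESeq2 called 1, Slc12a2. Between the isolations at 2 months, 0 were called by edgeR, DESeq2 or limma voom, with 2 at an unadjusted edgeR p under 0.05. There edgeR called 0.0898% of all tested genes. At 22 months, 1 was higher and 1 lower in Lgr5-GFP, beside 0.718% of all tested genes called in either direction. The share of all genes at an unadjusted p under 0.05 is not given here, so nothing is read from the unadjusted counts.

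The gene that was higher at 22 months was Slc12a2, the basolateral sodium, potassium and chloride cotransporter that loads epithelial cells with chloride. It was at 655, 609 and 637 CPM in SM6 old and at 935, 1099 and 1236 CPM in Lgr5-GFP old, with no overlap and a log2 difference of 0.78 (SE 0.16, edgeR adjusted p = 0.0130). The one that was lower was Klf4, a transcription factor of differentiating epithelium and goblet cells. Its levels were 63.1, 50.9 and 39.9 CPM in SM6 old and 22.0, 30.1 and 14.5 CPM in Lgr5-GFP old, a log2 difference of -1.19 (SE 0.27, edgeR adjusted p = 0.0320). Neither gene was called without SM6 old replicate 2 or without Lgr5-GFP old replicate 3, and Klf4 was also lost without SM6 old replicate 1 or Lgr5-GFP old replicate 1. At 2 months the groups of both genes overlapped.

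**Figure D5:**
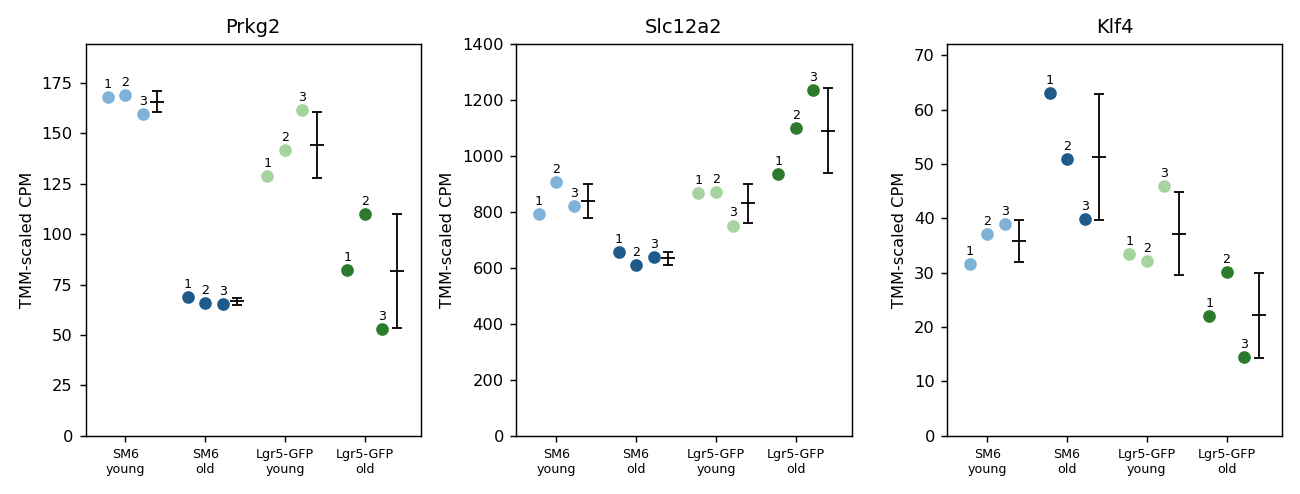
Levels of Prkg2, Slc12a2 and Klf4 in every library, in TMM-scaled CPM, with 1 point per library and the group mean ± SD beside it; each panel has its own axis from 0. Prkg2 is lower in the old libraries of both isolations, while Slc12a2 and Klf4 separate the isolations at 22 months.

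The rest of the list was not called by edgeR with age, and genes of few counts had wide intervals. Among the 8 tested genes of cGMP breakdown and export, Pde5a, a cGMP-specific phosphodiesterase, had the highest level, at 33.8 to 72.9 CPM over the libraries, with log2 age differences of -0.23 (SE 0.26) in SM6 and -0.09 (SE 0.26) in Lgr5-GFP. Of the 12 tested genes of ion transport, Kcne3, a subunit of basolateral potassium channels, had the highest mean over the 12 libraries at 655 to 1316 CPM. The log2 age differences of Kcne3 were 0.42 (SE 0.22) in SM6 and -0.24 (SE 0.22) in Lgr5-GFP. Slc12a2 was higher on average than Kcne3 in SM6 young and Lgr5-GFP old. Its log2 age differences were -0.41 (SE 0.16) in SM6 and 0.39 (SE 0.16) in Lgr5-GFP. Cftr, the chloride channel, had log2 age differences of -0.37 (SE 0.18) in SM6 and 0.14 (SE 0.18) in Lgr5-GFP. Among 9 tested intestinal transcription factors, Tcf7l2, which acts in Wnt signalling, had the highest mean over the 12 libraries at 176 to 471 CPM. The log2 age differences of Tcf7l2 were -0.55 (SE 0.21) in SM6 and -0.42 (SE 0.21) in Lgr5-GFP. Hnf4a was higher on average than Tcf7l2 in both Lgr5-GFP groups. Of 7 other cyclase and natriuretic receptor genes, Npr1 alone was tested, on 0 to 8 counts per library, and it was at 0 in every SM6 young library against 2, 8 and 3 counts in SM6 old (edgeR adjusted p = 0.0722). Pde1b, a phosphodiesterase, had log2 age differences of -0.98 (SE 0.98) in SM6 and 2.17 (SE 0.82) in Lgr5-GFP on 0 to 11 counts per library. Those of Slc9a3, a sodium and proton exchanger, were 1.26 (SE 0.84) and -1.91 (SE 0.97) on 0 to 10 counts. Gucy1a1 and Gucy1b1, subunits of the soluble guanylate cyclase, were at 0 throughout, as were Npr2, Npr3 and Nppc. A count of 0 allows up to 3 counts, or 3.09 CPM of the library total in the shallowest library.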

How the data were processed

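ISC libraries of 12 female mice were analysed, 3 in each of 4 groups. Per the labels and methods, the authors aligned reads with STAR 2.4.2a to GRCm38 and counted them over GENCODE exons with featureCounts. The deposited values are raw counts per gene. Whether reads sharing a molecular identifier were collapsed is not given in the sources used here, so the Wilson intervals cover counting error only. Intervals of fitted differences include the spread between replicates.

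The filter followed the study: a gene entered (13368 did) when any 1 library held more than 5 reads of it and at least 1 CPM. Counts were scaled by TMM and fitted with edgeR 4.0.16 in R 4.3.3 (quasi-likelihood, 1 mean per group, all 12 libraries, two-sided). SEs were taken as the log2 difference over the root of F. P-values were adjusted by Benjamini-Hochberg over all tested genes and called under 0.05. DESeq2 1.42.0, limma 3.58.1 and the settings in the closing section were alternatives. On simulated counts the fit was tested for recovery of known changes. Replicates differed beyond sampling noise, with chi-square per degree of freedom of 3.61 to 47.4. Positions came from GENCODE vM21, a later release on the same build.

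The members, the list of 43 further genes, the marker lists and the motifs were chosen with earlier results of these data known. Genes named were the members, for each the 5 most correlated genes by each measure, genes of the list of 43 called, the gene with the highest mean CPM in each role, and markers at 0 in a group or called with age. The result of 1 marker is not reported here. Cftr, Prkg1, the near-zero cyclases, Lgr5, Ascl2, Hnf4a, Pde1b and Slc9a3 were named in addition, after their values were seen. Marker calls and correlations with marker sums and named genes without the defensin-rich pair, and with the enterocyte sum without Fabp1, were added after seeing the data.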

Additional observations from a re-analysis of the deposited data

Results flagged for a closer look

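The age difference differed between the isolations, by the interaction term of the edgeR fit at an adjusted p under 0.05, for 16 marker genes. No test for an outlying library was run within groups of 3, and the effect of single libraries is given by leaving them out. Of the 16, 11 were called in each of the 12 fits without 1 library, and 11 without SM6 old replicate 3 and Lgr5-GFP young replicate 1, the libraries with the highest defensin shares. Guca2b was picked with this contrast known, so its log2 age difference in Lgr5-GFP minus that in SM6, -3.23, is a description and no test. Among enterocyte markers the same quantity was -3.26 for Alpi, -2.6 for Apoa1, -2.44 for Apoa4, -2.51 for Sis, -3.63 for Lct and -2.28 for Krt20. Among goblet cell markers it was -2.52 for Muc2, -1.74 for Agr2 and -2.91 for Spink4. Among Paneth cell markers it was -5.13 for Lyz1, -4.36 for Defa17, -4.06 for Defa24, -5.79 for Defa22, -4.2 for Mmp7, -5.71 for Ang4 and -5.44 for Itln1. The Paneth cell values rest largely on that pair, without which they were -2.24 to -1.59 and 2 of the 7 were called (Mmp7 at -1.90 and Ang4 at -2.24). Leaving out Lgr5-GFP young replicate 1 alone ended the calls of Lyz1, Defa17, Defa24, Defa22 and Itln1, and each of these was also lost without at least 1 other library, SM6 young replicate 2 for all but Defa22. Without the pair, the 6 enterocyte markers were at -4.02 to -2.64 and the 3 goblet cell markers at -2.10 to -1.73, and all 9 were called. With or without the pair, every one of these values has the sign of the Guca2b value. Of all 88 genes called by the interaction term, 81 had that sign and 7 the other, so nothing is read from the shared sign. The part of these markers in the Guca2b value was not tested.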

How the results depend on the processing

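Guca2b kept its direction in the 5 comparisons under every alternative run. Guca2a kept its direction in SM6 with age, in the difference of the age effects and at 22 months, but not in Lgr5-GFP with age or at 2 months, where its difference was near 0. For the difference of the age effects, leaving out 1 library gave -1.98 to -1.06 for Guca2a and -3.45 to -2.68 for Guca2b, and without SM6 old replicate 3 and Lgr5-GFP young replicate 1 that of Guca2b was -2.43. That of Gucy2c was 0.15 without this pair and 0.21 on library totals alone, a scaling that moved the median of all genes by 0.35 in that comparison. At 2 months, leaving out 1 library gave 0.49 to 1.26 for Guca2b, which was called with no filter on low counts (1.06). The difference of the age effects of Guca2a was called by limma voom (-1.64), with no filter on low counts (-1.40) and without Lgr5-GFP old replicate 2 (-1.98).

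Of the list of 43 further genes, those called in SM6 with age rose from 1 to 3 with limma voom (Prkg2, Npr1, Tcf7l2), with no filter (Prkg2, Npr1, Slc26a3) and without the defensin-rich pair (Prkg2, Slc26a3, Tcf7l2), and ranged from 1 to 3 when leaving out 1 library, with 3 without SM6 old replicate 3. In Lgr5-GFP with age, 1 was called (Prkg2) by DESeq2, limma voom and with no filter, and 0 to 1 when leaving out 1 library, with 1 without Lgr5-GFP old replicate 2. DESeq2 called 1 for the difference of the age effects. At 22 months, 1 was called (Slc12a2) on library totals alone and with the 2 groups fitted alone, and 0 to 2 when leaving out 1 library. Over all genes, the number called ranged from 145 to 603 in SM6 with age, from 26 to 274 in Lgr5-GFP with age, from 41 to 224 for the difference of the age effects, from 6 to 125 at 2 months and from 40 to 228 at 22 months. Removing the Paneth cell list and defensins from the table, an alternative added after seeing the data, changed no call of a member. Same-numbered libraries did not deviate together (r between -0.04 and 0.02), and with the replicate number as a block Guca2a differed by 1.40 and Guca2b by 1.48 in SM6 with age, with 331 genes called. The block changed no call of a member. With 3 libraries a group and 98 counts at the lowest, changes of Gucy2c within its intervals are not excluded.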
